A study of Mus musculus with 4 samples.

Results

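The genes described here are the nuclear-encoded subunits of the oxidative phosphorylation (OXPHOS) system: 82 genes of the 24473 with a deposited expression level. They were chosen by symbol alone (Nduf, Sdh, Uqcr, Cyc1, Cycs, Cox4 to Cox8 and Atp5 genes), and 15 of the 97 symbols that matched were left out as pseudogenes by their name or annotated type. Complex I accounts for 36 of the 82, complex II for 4, complex III for 9, cytochrome c for 1, complex IV for 15 and complex V for 17. RNA was sequenced from 4 libraries of the mouse line BV-2, immortalised microglia that stand in for macrophages of the brain. In 2 of them, titled sh s, SIX2 had been knocked down; SIX2 is a homeodomain protein that regulates transcription and belongs to the sine oculis group. They were set against 2 control libraries titled sh c, whose genotype is given as wild type, so how the control cells were handled is not given in full. All 4 libraries came from cells that had received lipopolysaccharide (LPS), a bacterial cell wall component, at 100 ng/mL for 24 h, so no library shows the genes without LPS. Neither the hairpin sequence nor the number of clones behind each group is stated, and nothing says whether replicates were separate cultures, so a p-value here reflects variation among 4 libraries that could be technical.

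Oxidative phosphorylation is carried out in the inner mitochondrial membrane. Complexes I and II pass electrons from NADH and succinate to ubiquinone, complex III passes them on to cytochrome c, and complex IV hands them to oxygen. The protons pumped on the way drive complex V, the ATP synthase. Most subunits are encoded in the nucleus and imported, while the catalytic core of complexes I, III, IV and V also needs subunits made inside the mitochondrion from its own DNA; complex II is entirely nuclear. In macrophages and microglia, LPS is known to move energy metabolism from respiration toward glycolysis.

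The SIX2 knockdown libraries held 74.7 and 64.3 M estimated counts and the control libraries 75.7 and 61.0 M, of which 1.70% to 1.76% fell on the 82 genes in each library. Low counts peaked at multiples of 4, so a limit of 12 counts was taken for 3 sequenced fragments, which is 0.162 and 0.190 counts per M scaled counts (CPM) in the SIX2 knockdown libraries and 0.157 and 0.194 CPM in the control libraries. Six2 itself had 0 counts in all 4 libraries, so its mRNA was under that limit in both groups and the knockdown could not be checked here. Of 12 microglia or macrophage markers, 11 were tested. Of these, 3 fell at a Benjamini-Hochberg adjusted p under 0.05 by the edgeR quasi-likelihood test (Csf1r, Adgre1 and Aif1). Over all genes tested, 0.953% were called. The fit put 2 of the 11 above 0 and 9 below. Log2 fold changes, SIX2 knockdown minus control, were -0.48 for Csf1r, -0.63 for Adgre1 and -1.04 for Aif1. Those of Tyrobp, Spi1, Cd68 and Ptprc were -0.02, -0.03, -0.04 and 0.05, and those of Tmem119, Fcer1g, Itgam and Cx3cr1 were -0.85, -0.14, -0.08 and 0.41. Tmem119 was lower in both SIX2 knockdown libraries than in both controls, with an adjusted p of 0.0751 by the same test. The 12 markers together summed to 2075 and 2029 CPM in SIX2 knockdown against 2280 and 2330 CPM in control. P2ry12, the marker not tested, was at 0 counts in both SIX2 knockdown libraries, and had 24 and 4 counts in the control libraries. Only control replicate 1 was thus above the limit of 12 counts. A set of 5 neuron markers summed to 3.19 and 0 CPM in SIX2 knockdown against 6.14 and 5.63 CPM in control, and 5 oligodendrocyte markers to 8.48 and 0.32 CPM against 15.3 and 14.3 CPM. All libraries came from the BV-2 line, and the source of the neuron and oligodendrocyte reads was not tested. Bulk RNA does not tell fewer cells expressing a gene from less RNA per cell.

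None of the nuclear OXPHOS subunits was called different between SIX2 knockdown and control. Counts were tested gene by gene with edgeR's quasi-likelihood F test, two-sided, and 80 of the 82 genes had enough reads to enter it. At an adjusted p under 0.05 over all 15733 genes tested, 0 of the 80 were higher and 0 were lower, where 0.953% of all genes tested were called (0.407% higher and 0.547% lower) and 1.53% of those averaging 20 CPM or more. DESeq2 also called 0 of them, where it called 4.19% of all genes. At an unadjusted p under 0.05 there were 6 members fitted higher and 2 fitted lower, 8 of the 80 or 10%, against 14.2% of all genes tested (7.52% higher and 6.7% lower). Among the 7298 genes that averaged 20 CPM or more, a level that 78 of the members reached, the share was 18.5%. SIX2 knockdown and control libraries were apart in CPM for 36 of the 80 genes, 17 higher and 19 lower in SIX2 knockdown, which is 45.0% against 47.6% of all genes tested (23.8% in each direction).

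The fitted changes lay close to 0 in each direction. Log2 fold changes, SIX2 knockdown minus control, were above 0 for 39 genes and below 0 for 41. Their median was -0.003, against -0.006 over all genes tested. Regardless of sign, the median size of the change was 0.077 on the log2 scale, against 0.123 for genes averaging 20 CPM or more and 0.206 for all genes tested. Neither of these sets was matched to the members for level, and the part of level in the smaller size was not tested. Between replicates of a group, the median log2 ratio, regardless of sign, was 0.085 for the SIX2 knockdown libraries and 0.107 for the control libraries. These are ratios of single libraries, whereas a fitted change compares whole groups, so the sizes are not like for like.

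The intervals of these changes show what the data leave room for. The 95% interval stayed within a 2-fold change either way for 77 of the 80 genes, and within a 1.5-fold change for 71. The 3 genes whose interval passed 2-fold were Cox6a2, Cox4i1 and Atp5k, and the other 6 past 1.5-fold were Ndufb2, Ndufa12, Ndufv2, Ndufa3, Cox7a2l and Cox7a1.

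**Figure D1:**
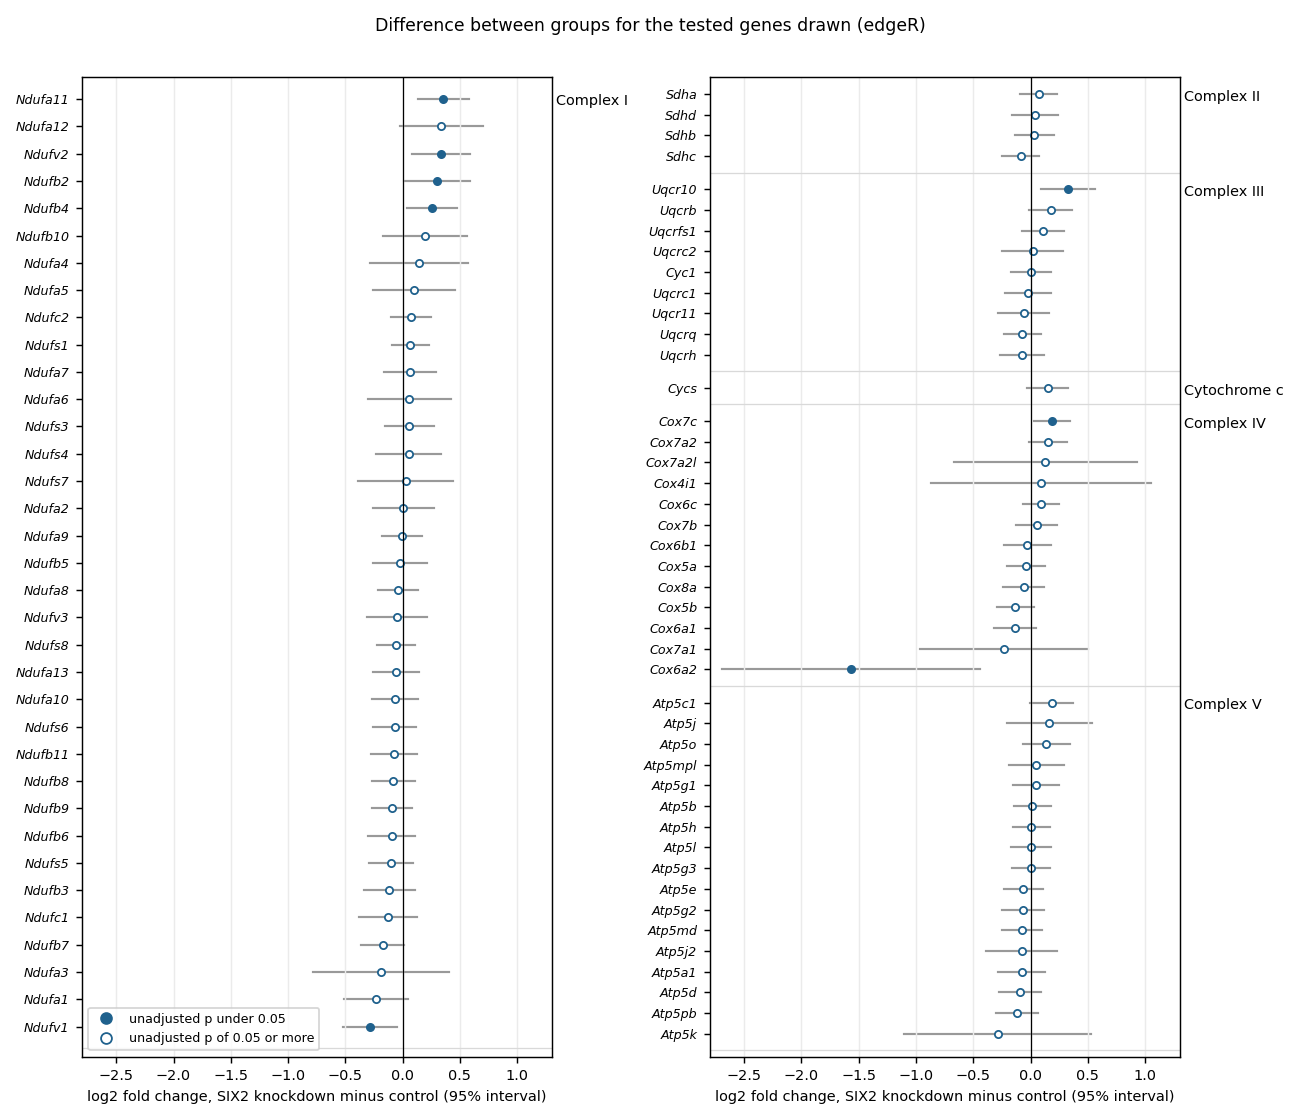
Log2 fold change, SIX2 knockdown minus control, on the horizontal axis for 79 of the 80 tested genes, grouped by complex and ordered by value, with the 95% interval of the edgeR fit as a grey line. Filled points mark the 8 genes with an unadjusted p under 0.05; none passed after adjustment, and the interval of Cox6a2 reached farthest from 0.

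Levels are given in deposited FPKM, fragments per kilobase of gene and per M fragments, so that genes of different length can be set side by side. Averaged over the 4 libraries, the 82 genes ran from 0.0084 to 548 FPKM, with a median of 88.7 FPKM. Together they summed to 9172 ± 224 FPKM in SIX2 knockdown and 9325 ± 216 FPKM in control (SD, n = 2 each), which was 2.43% to 2.50% of all FPKM in a library. The order of single genes depends on the length behind FPKM: the length implied by the deposited values had a median of 1.90 times that of 1 coding transcript of the gene. Ranks by FPKM and by CPM per kilobase of that transcript, an added calculation, had a Spearman correlation across the genes of 0.713.

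**Figure D2:**
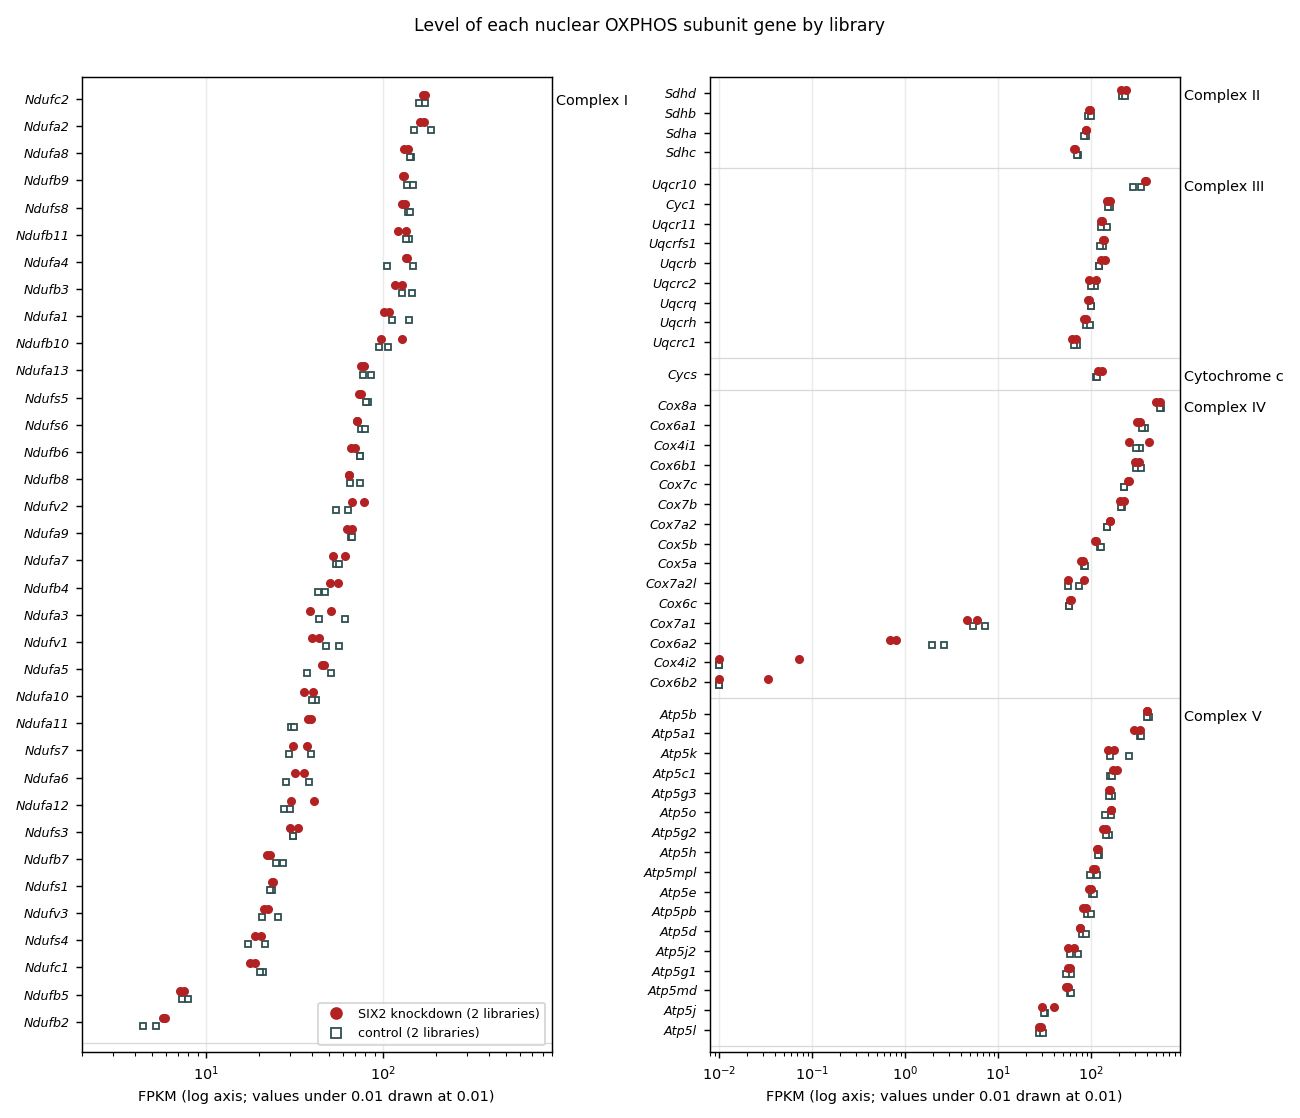
Deposited FPKM on a log axis for 81 of the 82 genes, ordered by mean level within each complex, with SIX2 knockdown libraries as filled circles and control libraries as open squares. The highest library was over 1.5 times the lowest for Cox6a2, Atp5k, Cox4i1, Cox7a1 and Ndufa3, 5 of the 80 genes above 0 in every library; Cox4i2 and Cox6b2 are at or next to 0.

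To show what stands upstream of these genes, 300-base promoter windows (250 bases before to 50 after the start site) were taken from RefSeq on GRCm38.p6, where 67 of the 82 genes matched, with 72 windows. Known regulators of OXPHOS genes are NRF1, the ETS factor GABPA and YY1, and MEF3 is the element bound by SIX-family factors. The windows of 5 genes are printed 5′ to 3′ on the gene's strand because they belong to an abundant complex IV gene with NRF1 matches (Cox6a1), to 3 genes with a low unadjusted p described below (Ndufa11 and Ndufv1 of complex I and Uqcr10 of complex III), and to a complex II gene with a MEF3 match (Sdhd). Capitals mark motif matches on either strand: NRF1 as GCGCA, 1 base of any kind and GCGC, GABPA as CCGGAAG, MEF3 as TCAGGTT and the E-box as CACGTG. The windows are Cox6a1 at chr5:115348909-115349208 (minus strand), Ndufa11 at chr17:56717512-56717811 (plus strand), Uqcr10 at chr11:4704295-4704594 (minus strand), Ndufv1 at chr19:4012706-4013005 (minus strand) and Sdhd at chr9:50603800-50604099 (minus strand).
Cox6a1: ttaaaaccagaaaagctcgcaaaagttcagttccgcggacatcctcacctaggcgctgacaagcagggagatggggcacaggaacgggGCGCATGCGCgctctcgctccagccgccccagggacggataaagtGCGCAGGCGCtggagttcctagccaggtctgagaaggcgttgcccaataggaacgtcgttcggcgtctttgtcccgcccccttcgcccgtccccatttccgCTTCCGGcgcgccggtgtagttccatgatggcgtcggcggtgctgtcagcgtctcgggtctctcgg
Ndufa11: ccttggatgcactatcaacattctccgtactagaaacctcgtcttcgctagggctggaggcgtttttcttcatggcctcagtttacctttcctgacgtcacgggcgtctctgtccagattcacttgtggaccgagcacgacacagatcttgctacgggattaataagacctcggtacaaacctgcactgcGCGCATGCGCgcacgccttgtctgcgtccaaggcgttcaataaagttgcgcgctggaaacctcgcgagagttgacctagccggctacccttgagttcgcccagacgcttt
Uqcr10: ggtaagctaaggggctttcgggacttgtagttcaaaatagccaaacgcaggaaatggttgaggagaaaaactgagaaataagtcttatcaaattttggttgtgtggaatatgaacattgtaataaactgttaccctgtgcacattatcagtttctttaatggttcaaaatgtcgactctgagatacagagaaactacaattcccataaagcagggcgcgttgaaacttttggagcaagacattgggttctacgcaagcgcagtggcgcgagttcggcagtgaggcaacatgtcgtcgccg
Ndufv1: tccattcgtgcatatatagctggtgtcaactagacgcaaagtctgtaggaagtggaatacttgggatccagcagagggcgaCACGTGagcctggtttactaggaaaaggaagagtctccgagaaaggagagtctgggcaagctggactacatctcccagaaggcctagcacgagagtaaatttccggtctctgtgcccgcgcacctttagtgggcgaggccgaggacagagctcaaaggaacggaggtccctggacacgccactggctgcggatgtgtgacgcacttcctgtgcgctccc
Sdhd: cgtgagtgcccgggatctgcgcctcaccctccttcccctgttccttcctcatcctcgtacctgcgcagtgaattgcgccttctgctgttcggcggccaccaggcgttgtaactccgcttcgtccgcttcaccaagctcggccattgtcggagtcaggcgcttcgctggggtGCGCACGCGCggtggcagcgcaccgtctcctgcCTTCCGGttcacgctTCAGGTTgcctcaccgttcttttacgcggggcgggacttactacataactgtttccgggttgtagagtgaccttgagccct

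In the Cox6a1 window the NRF1 letters begin 162 and 117 bases before the start site and the GABPA letters 16 before it. The Ndufa11 window has NRF1 letters beginning 60 bases before the start site, the Ndufv1 window an E-box 169 before it, and the Uqcr10 window none of the motifs searched. In the Sdhd window NRF1, GABPA and MEF3 letters begin 79, 46 and 31 bases before the start site. Over the 72 windows of the OXPHOS genes, the NRF1 letters were present in 25.0%, against 4.60% of all 32851 promoter windows and 6.38% of those of protein-coding genes. Both windows of Ndufa5, which overlap, count among those with the NRF1 letters. The GABPA letters were present in 23.6% of the members' windows, against 8.86% of all windows and 11.6% of those of protein-coding genes. The YY1 letters, AANATGGC, were present in 23.6%, against 6.05% of all and 6.37% of protein-coding windows. The TATAAA letters were present in 9.72%, against 13.6% of all and 12.6% of protein-coding windows, and the E-box in 9.72%, against 7.15% and 7.84%. The MEF3 letters were present in 6 of the members' 72 windows, or 8.33%, against 4.07% of all windows and 3.85% of those of protein-coding genes. Ndufa7 gave 2 of these 6, which overlap and hold the same match. The 5 genes with a MEF3 match had log2 fold changes of -0.13 (Ndufc1), -0.08 (Uqcrh), 0.10 (Ndufa5), 0.04 (Sdhd) and 0.06 (Ndufa7), none of which passed the test. The members' windows also differed in base composition, with a median of 19 CG pairs and 58.0% G or C. Over all windows the medians were 7 and 52.7%, and over those of protein-coding genes 13 and 56.3%. The NRF1 and GABPA letters contain CG, and the part of base composition in their shares was not tested. A match is a description of letters, and binding at these windows was not measured.

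Complex I, NADH dehydrogenase, had a median log2 fold change of -0.03 over 36 genes, 16 above 0 and 20 below. Its subunits summed to 2527 and 2565 FPKM in SIX2 knockdown against 2509 and 2738 FPKM in control, so both SIX2 knockdown libraries lay between the control libraries. The 7 nuclear core subunits, which carry the flavin and iron-sulfur clusters or line the path to ubiquinone, had a median of 0.03, and the 29 accessory subunits, which surround and stabilise the core, a median of -0.04. The least abundant core gene averaged 23.7 FPKM, and the accessory genes ran from 5.33 to 169 FPKM.

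A pair of core genes of the NADH-oxidising tip of complex I were fitted in opposite directions. Ndufv2, an iron-sulfur subunit at chr17:66078638-66101559 (GRCm38, minus strand), had 67.6 and 78.1 FPKM in SIX2 knockdown against 54.6 and 63.5 FPKM in control. The groups did not overlap, and the log2 fold change was 0.34 with SE 0.11 and an adjusted p of 0.232 by edgeR. Ndufv1, the flavin-binding subunit that accepts electrons from NADH, had 43.8 and 39.7 FPKM in SIX2 knockdown against 47.7 and 56.4 FPKM in control. Both SIX2 knockdown libraries were below both controls, with a log2 fold change of -0.28, an interval of -0.52 to -0.05 and an adjusted p of 0.273. Ndufv1, like Ndufb4, Ndufa12 and the genes with wide replicate spread named below, was singled out after its values were seen. Ndufs1, the large iron-sulfur subunit, lay nearer 0, with a log2 fold change of 0.07.

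Among the accessory subunits, Ndufa11, a membrane-arm subunit, had the lowest p of all 80 genes. It had 39.5 and 37.9 FPKM in SIX2 knockdown against 30.4 and 31.6 FPKM in control, and the replicates of each group lay close together and apart from the other group. Its log2 fold change was 0.36 with SE 0.09, an interval of 0.13 to 0.58, an unadjusted p of 0.0068 and an adjusted p of 0.167. Over the alternatives run, its log2 fold change stayed between 0.31 and 0.39, with an adjusted p from 0.0749 with DESeq2 to 0.437 without control replicate 2.

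Ndufb2 and Ndufb4, both accessory subunits of the membrane arm, were also higher in both SIX2 knockdown libraries than in both controls. Ndufb4 had 55.7 and 50.1 FPKM in SIX2 knockdown against 47.3 and 43.3 FPKM in control, a log2 fold change of 0.26 with an adjusted p of 0.275. Ndufb2, the complex I gene with the lowest mean level, had 5.91 and 5.73 FPKM in SIX2 knockdown against 5.23 and 4.45 FPKM in control, a log2 fold change of 0.30 with an adjusted p of 0.329. Its FPKM rests on an implied length over 10 times that of its coding transcript. The Ndufb2 gene overlaps Gm42420 on the same strand, and Braf and Gm16272 on the opposite strand. The most abundant complex I genes, Ndufc2 and Ndufa2, had log2 fold changes of 0.07 and 0.01. Ndufc2 had 174 and 170 FPKM in SIX2 knockdown against 161 and 173 FPKM in control, and Ndufa2 had 162 and 171 FPKM against 151 and 188 FPKM, so both overlapped.

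Ndufa4, grouped here by its symbol although it is now regarded as a subunit of complex IV, had 135 and 138 FPKM in SIX2 knockdown against 105 and 148 FPKM in control. Its groups overlapped because the control libraries lay on either side of the SIX2 knockdown libraries. Its paralogue Ndufa4l2, known to be induced by hypoxia, had 0 counts in all 4 libraries. Ndufa3 had 38.8 and 50.8 FPKM in SIX2 knockdown against 43.5 and 61.2 FPKM in control, and replicate 2 was the higher library in each group.

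Complex II, succinate dehydrogenase, joins the citric acid cycle to the respiratory chain, and its 4 genes varied little. Sdha, the flavoprotein that oxidises succinate, had 88.7 and 88.8 FPKM in SIX2 knockdown against 88.7 and 84.3 FPKM in control, with a log2 fold change of 0.07 and an interval of -0.09 to 0.23. Sdhb, the iron-sulfur subunit, had 96.0 and 99.1 FPKM in SIX2 knockdown against 94.1 and 102 FPKM in control, a log2 fold change of 0.03. The 4 libraries lay close together for both genes. Of the 2 membrane anchors, Sdhc had 67.6 and 65.5 FPKM in SIX2 knockdown against 73.2 and 71.3 FPKM in control, and its groups did not overlap. Its log2 fold change was -0.08 with an interval of -0.25 to 0.08 and an adjusted p of 0.649 by edgeR. Sdhd, whose promoter window is printed above, had 213 and 239 FPKM in SIX2 knockdown against 216 and 235 FPKM in control, with a log2 fold change of 0.04. It was the most abundant of the 4 in each library.

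Complex III, the cytochrome bc1 complex, had a median log2 fold change of -0.0001 over its 9 genes. Its genes summed to 1269 and 1314 FPKM in SIX2 knockdown against 1201 and 1263 FPKM in control, and these sums did not overlap. That order rested on 1 gene, Uqcr10, a small subunit of the complex at chr11:4701973-4704342 (GRCm38, minus strand) and the third most abundant of all 82 genes by FPKM. Uqcr10 had 379 and 392 FPKM in SIX2 knockdown against 283 and 346 FPKM in control, with both SIX2 knockdown libraries above both controls. Its log2 fold change was 0.33 with SE 0.10, an interval of 0.09 to 0.57, an unadjusted p of 0.014 and an adjusted p of 0.218 by edgeR. The other 8 genes together had 890 and 922 FPKM in SIX2 knockdown against 917 and 917 FPKM in control, which overlapped.

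The catalytic subunits of complex III stayed near 0. Cyc1, cytochrome c1, had 149 and 160 FPKM in SIX2 knockdown against 162 and 154 FPKM in control, with an interval of -0.17 to 0.17 on the log2 scale. Uqcrfs1, the Rieske iron-sulfur protein, had 134 and 138 FPKM in SIX2 knockdown against 135 and 124 FPKM in control, with a log2 fold change of 0.11. Their groups overlapped on FPKM. Uqcrb, which takes part in ubiquinone binding, had 130 and 141 FPKM in SIX2 knockdown against 121 and 124 FPKM in control; the groups did not overlap, and its log2 fold change of 0.18 had an adjusted p of 0.384. Uqcrc1, a core protein and the least abundant gene of the complex, had 69.8 and 62.1 FPKM in SIX2 knockdown against 71.1 and 66.0 FPKM in control.

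Cycs, the electron carrier between complexes III and IV and also a trigger of apoptosis when it leaves the mitochondrion, had 119 and 131 FPKM in SIX2 knockdown against 114 and 118 FPKM in control. The groups did not overlap, and the log2 fold change of 0.15 had an interval of -0.03 to 0.33 and an adjusted p of 0.435 by edgeR. Cyct, the testis form, had 0 counts in all 4 libraries.

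Complex IV, cytochrome c oxidase, held both the highest and the lowest levels, and several of its subunits are known to come as tissue-specific isoforms. Its 13 tested genes had a median log2 fold change of -0.03, with 6 above 0 and 7 below. They summed to 2418 and 2524 FPKM in SIX2 knockdown against 2548 and 2496 FPKM in control, which overlapped. Cox8a, the ubiquitous form of the smallest subunit, was the most abundant of all 82 genes by FPKM. It had 559 and 501 FPKM in SIX2 knockdown against 573 and 560 FPKM in control; both SIX2 knockdown libraries were the lower, although they overlapped on CPM, and the log2 fold change was -0.06.

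The isoform genes split widely by level. Cox4i1, the ubiquitous form of the largest nuclear subunit, averaged 330 FPKM, whereas Cox4i2, a form known from lung and hypoxic cells, had 5 and 0 counts in SIX2 knockdown and 0 and 0 in control. Cox6b1 averaged 323 FPKM, and Cox6b2, the testis form, had 4 and 0 counts in SIX2 knockdown and 0 and 0 in control. Cox4i2 and Cox6b2 were thus under the limit of 12 counts in every library and were the 2 genes not tested. Cox8b and Cox8c, the muscle and testis forms beside Cox8a, and Cox7b2 had 0 counts in all 4 libraries. Of the Cox7a genes, Cox7a2 had 161 and 162 FPKM in SIX2 knockdown against 149 and 148 FPKM in control, a log2 fold change of 0.15 with an adjusted p of 0.386. Cox7a1, the muscle form, had 4.62 and 5.92 FPKM in SIX2 knockdown against 7.29 and 5.34 FPKM in control. The Cox7a2 groups stood apart and those of Cox7a1 overlapped.

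**Figure D3:**
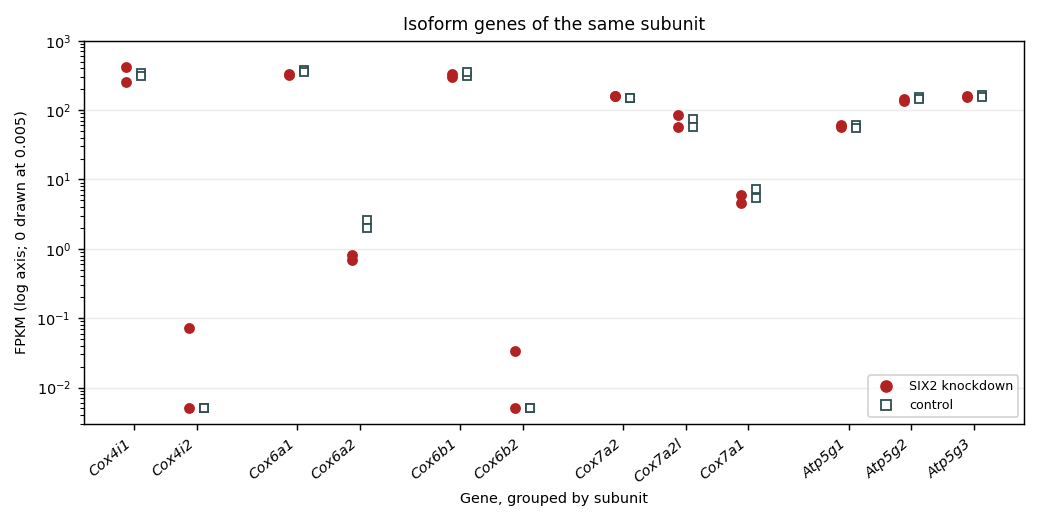
Deposited FPKM on a log axis for isoform genes of the same subunit, with the 2 SIX2 knockdown libraries as filled circles left of the 2 control libraries as open squares. In the Cox4, Cox6a, Cox6b and Cox7a groups 1 form lies far under the others, while the 3 genes of subunit c lie within 54.5 to 167 FPKM.

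The gene with the widest difference between the groups was Cox6a2, the heart and skeletal muscle form of subunit 6a, at chr7:128205435-128206387 (GRCm38, minus strand). It had 46 and 34 counts in SIX2 knockdown against 150 and 91 counts in control, or 0.803 and 0.693 FPKM against 2.61 and 1.97 FPKM. Both SIX2 knockdown libraries were below both controls, and all 4 were above the limit of 12 counts. Its log2 fold change was -1.57 with SE 0.47, an interval of -2.69 to -0.44, an unadjusted p of 0.0134 and an adjusted p of 0.216 by edgeR. Over the alternatives it lay between -1.76 and -0.91, with an adjusted p from 0.129 with DESeq2 to 0.487 without control replicate 1. The marker sums of neurons and oligodendrocytes given above were also lower in both SIX2 knockdown libraries, and were at or near 0 in SIX2 knockdown replicate 2, where Cox6a2 kept 34 counts; 5 astrocyte markers summed to 2.34 and 0.71 CPM in SIX2 knockdown against 5.13 and 4.08 CPM in control, and 5 fibroblast markers to 0.34 and 0.06 CPM against 0.55 and 0.58 CPM. The part of such RNA in the Cox6a2 difference was not tested, and no muscle marker list was examined. Cox6a2 overlaps Itgad on the opposite strand, which had 0 counts in all 4 libraries. The ubiquitous form Cox6a1, whose promoter window is printed above, had 337 and 316 FPKM in SIX2 knockdown against 383 and 352 FPKM in control, with a log2 fold change of -0.14, an interval of -0.32 to 0.05 and an adjusted p of 0.499.

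Cox7c, a small subunit of complex IV, was the remaining gene with an unadjusted p under 0.05. It had 250 and 257 FPKM in SIX2 knockdown against 226 and 230 FPKM in control, a log2 fold change of 0.18 with SE 0.07 and an adjusted p of 0.272. Cox5b, which binds zinc, was fitted lower, with 114 and 111 FPKM in SIX2 knockdown against 124 and 129 FPKM in control, a log2 fold change of -0.14 with an adjusted p of 0.437. Both genes had groups that did not overlap.

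Cox4i1 and Cox7a2l had wide spread within a group. Cox4i1 had 254 and 418 FPKM in SIX2 knockdown against 337 and 308 FPKM in control, and the controls lay between the SIX2 knockdown libraries. Without SIX2 knockdown replicate 2 its log2 fold change of 0.09 turned to -0.31. The Cox4i1 gene overlaps Gm20388 on the same strand and Emc8 on the opposite strand. Cox7a2l, which takes part in joining complexes III and IV into supercomplexes, had 84.0 and 56.7 FPKM in SIX2 knockdown against 75.0 and 56.7 FPKM in control, and replicate 1 was the higher library in each group.

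Complex V, the ATP synthase, had a median log2 fold change of 0.003 over 17 genes, with 9 above 0 and 8 below, and none reached an unadjusted p under 0.05. Its genes summed to 2215 and 2304 FPKM in SIX2 knockdown against 2328 and 2370 FPKM in control. Both SIX2 knockdown sums were under both controls, and the complex took 24.6% and 24.7% of the members' FPKM in SIX2 knockdown against 25.4% and 25.0% in control. That order rested on Atp5k: without it the other 16 genes summed to 2060 and 2127 FPKM in SIX2 knockdown against 2169 and 2114 FPKM in control, which overlapped. By CPM per kilobase the shares overlapped too, at 35.9% and 35.6% in SIX2 knockdown against 37.0% and 35.8% in control. Of the catalytic head, Atp5b, the beta subunit that makes ATP, had 406 and 403 FPKM in SIX2 knockdown against 419 and 401 FPKM in control, with an interval of -0.15 to 0.18. Atp5a1, the alpha subunit, had 294 and 341 FPKM in SIX2 knockdown against 337 and 350 FPKM in control, with a log2 fold change of -0.08. Both overlapped between the groups.

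Atp5c1, the gamma subunit of the central rotor, had the lowest p of the complex. It had 173 and 191 FPKM in SIX2 knockdown against 160 and 169 FPKM in control, a log2 fold change of 0.18 with an adjusted p of 0.355 by edgeR. Atp5o, a subunit of the peripheral stalk, had 163 and 165 FPKM in SIX2 knockdown against 163 and 143 FPKM in control, with a log2 fold change of 0.14. Control replicate 2 was the low library for Atp5o. Atp5k, a small membrane subunit, had 154 and 178 FPKM in SIX2 knockdown against 159 and 256 FPKM in control, where control replicate 2 stood above the other 3 libraries.

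Subunit c forms the rotating ring of the ATP synthase and is encoded by 3 genes that give the same mature protein. Atp5g3 had 160 and 156 FPKM in SIX2 knockdown against 167 and 156 FPKM in control, Atp5g2 had 144 and 136 FPKM against 156 and 144 FPKM, and Atp5g1 had 60.0 and 56.6 FPKM against 61.1 and 54.5 FPKM. Their log2 fold changes were 0.00, -0.06 and 0.05. The place of Atp5g1 depended on the length used: it ranked 57th of the 82 genes by FPKM and 7th by CPM per kilobase of a coding transcript, and Atp5l, another membrane subunit with 29.1 and 27.9 FPKM in SIX2 knockdown against 27.9 and 30.4 FPKM in control, had an implied length 13.2 times that of its transcript.

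OXPHOS genes are known for processed pseudogenes, and reads from near-identical copies can be split between them. Copies matching at least 150 bases at 95% identity or more were found for 24 of the 82 genes, 46 copies in all, of which 41 are annotated as pseudogenes. For 7 genes the copies held over 10% of the combined counts. For Ndufa12, an accessory subunit of complex I, the copy held 53.2%: Ndufa12 had 3978 and 4589 counts in SIX2 knockdown against 3691 and 3176 counts in control, and its copy 5315 and 3483 counts against 4795 and 3942 counts. The copy was lowest in SIX2 knockdown replicate 2, the library in which Ndufa12 was highest. With the copy added, the log2 fold change of 0.34 became 0.16, and it was the only gene moved by over 0.1. The other 6 genes were Atp5g2 (26.5% in copies), Atp5l (21.8%, in 9 copies), Atp5g1 (20.7%), Uqcr11 (20.1%), Cox5b (16.9%) and Atp5h (11.8%). With all copies added to their genes, 0 of the 80 genes were called.

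**Figure D4:**
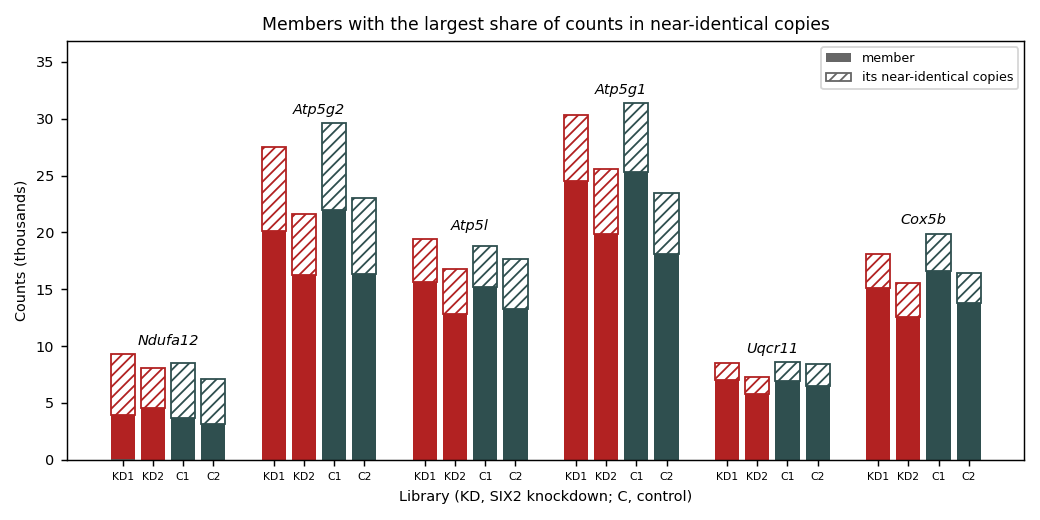
Counts per library, on an axis in units of 1000, for the 6 genes with the largest share in near-identical copies, with the gene as the filled part of each bar and its copies as the hatched part, and SIX2 knockdown libraries (KD1, KD2) left of control libraries (C1, C2). For Ndufa12 the copies hold more than the gene in 3 of the 4 libraries.

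The 13 subunits encoded by mitochondrial DNA, which assemble with the nuclear ones, gave another picture without passing the test either. Of the 13 genes, 0 were called at an adjusted p under 0.05 by edgeR, whereas DESeq2 called 5, all of complex I and all higher, where it called 4.19% of all genes in either direction. In the edgeR fit 13 were fitted above 0 and 6 had an unadjusted p under 0.05, where 7.52% of all genes tested were higher at that p. The median log2 fold change was 0.33 against -0.003 for the nuclear genes. They held 3.78% and 4.75% of all counts in SIX2 knockdown against 3.54% and 3.80% in control, so SIX2 knockdown replicate 2 was the high library and the other 3 lay near each other. Without that library the median was 0.08, and without each of the others in turn it was 0.33 to 0.47. The 7 mitochondrial genes of complex I had a median of 0.41, and 0.31 without SIX2 knockdown replicate 2, against -0.03 for the nuclear genes of the complex. mt-Nd5 had 2693 and 2834 CPM in SIX2 knockdown against 2150.0 and 2179 CPM in control, with a log2 fold change of 0.35 and an adjusted p of 0.0919. mt-Nd2 had a log2 fold change of 0.41 with an adjusted p of 0.101, and the 3 mitochondrial genes of complex IV had a median of 0.16. The difference between nuclear and mitochondrial genes was not tested, and the libraries were made from poly(A)-selected RNA.

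**Figure D5:**
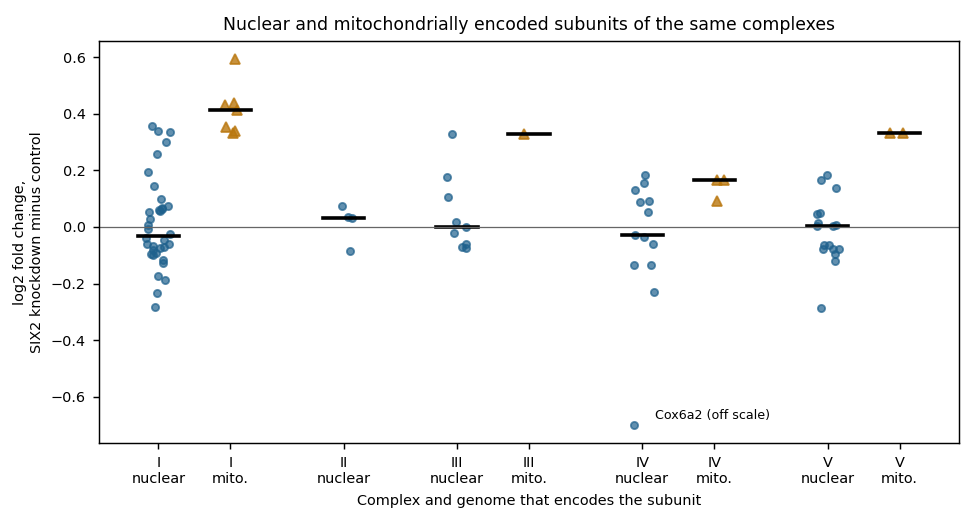
Log2 fold change, SIX2 knockdown minus control, on the vertical axis for nuclear genes (circles; 1 of complex I is not drawn) and mitochondrially encoded genes (triangles) of complexes I to V, with the median over all tested genes as a black bar. The nuclear medians lie within -0.03 to 0.03 and the mitochondrial ones within 0.16 to 0.41; Cox6a2, at -1.57, is drawn at the lower edge.

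Of the genes that build, regulate or feed the complexes, 1 passed the test. Among 49 tested assembly factors, 0 rose and 1 fell: Cox15, which takes part in making the heme a that complex IV needs. A single call among 49 is too few to set against the 0.953% called over all genes tested (0.547% lower), so it says nothing of the list. Cox15 had 83.1 and 78.1 CPM in SIX2 knockdown against 139 and 132 CPM in control, so both SIX2 knockdown libraries were well below both controls. Its log2 fold change was -0.75 with SE 0.08 and an adjusted p of 0.0159 by edgeR. The direction held in every alternative run, while the call was lost without SIX2 knockdown replicate 2, without control replicate 1 and without control replicate 2, with adjusted p values of 0.0948, 0.0749 and 0.0783, and with the robust option off, the replicate block, FPKM in place of counts or a threshold of 0.01. Over all alternatives the adjusted p ran from 3.2e-11 with DESeq2 to 0.302 with unfiltered FPKM. Sco2, a copper chaperone of complex IV, had 8.26 and 11.5 CPM in SIX2 knockdown against 17.6 and 19.6 CPM in control, a log2 fold change of -0.91 with an adjusted p of 0.102 by edgeR. Sco2 was called with DESeq2, at an adjusted p of 0.00376, and in the edgeR fit with no filter on low counts, at 0.0399, and over all alternatives the adjusted p ran up to 0.398 with unfiltered FPKM. The 49 assembly factors had a median of -0.03.

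None of the other lists had a called gene. Of 15 tested regulators of mitochondrial biogenesis, 0 were called, with a median of 0.08 and 2 at an unadjusted p under 0.05, a share near the 14.2% of all genes tested. These were Polrmt, the mitochondrial RNA polymerase, with a log2 fold change of 0.37, and Gabpa, which overlaps Atp5j on the opposite strand, with 0.33. Gabpa had 112 and 119 CPM in SIX2 knockdown against 102 and 82.0 CPM in control. Of 17 citric acid cycle and pyruvate dehydrogenase genes 0 were called, with a median of 0.03, and of 7 ADP/ATP carriers, phosphate carriers and channels 0 were called, with a median of 0.01. DESeq2 called 1 gene of these 3 lists, where it called 4.19% of all genes, so the call says nothing of the lists. It was Pdha1, a subunit of pyruvate dehydrogenase, with 206 and 213 CPM in SIX2 knockdown against 172 and 173 CPM in control.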

How the data were processed

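The samples were 4 BV-2 RNA libraries, 2 with SIX2 knockdown and 2 controls by their titles. Poly(A) RNA was made into strand-marked (dUTP) paired-end libraries, per the labels' protocols. The authors deposited expected counts per Ensembl gene with no scaling; they are whole numbers, so none was rounded. The authors also deposited FPKM, a unit given in the column names per the file headers, which scale fragments by gene length and library depth. Bowtie 0.12.2 and genome build mm8 are named in the submitters' processing notes; the counting program and its use of strand are not given in the sources used here. Coordinates of 21876 of 24422 genes (89.6%), 70 members among them, were identical to GENCODE M21 on GRCm38, which is the build used here. Another 12 columns match no labelled sample and were not used.

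The test was edgeR 4.0.16 (R 4.3.3) over all genes: filterByExpr by group, TMM scaling, a robust quasi-likelihood fit and a two-sided F test, Benjamini-Hochberg adjusted over 15733 genes, with no covariate. CPM are TMM-scaled, and intervals are at 95% from that fit. The script was tested on simulated counts. Copies were found with blastn 2.17.0. Alternatives were DESeq2 1.42.0, limma 3.58.1 (voom, and trend on log2 FPKM with 1 or 0.1 added), other scalings, filters and thresholds, each library left out, and the replicate block; adding copies and CPM per kilobase were chosen after seeing the data. The members and gene lists were chosen with earlier results of these data known.

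Named were, in each complex, the 2 tested members highest in FPKM, the 2 with the lowest p and the 1 lowest in FPKM, with Cycs, the isoform groups, any called member and called genes of other lists. Strand matters for 37 members: 12 overlap another gene on the same strand and another 25 one on the opposite strand only. Limits from counting cover counting error only. The values of 1 member are not reported here.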

Additional observations from a re-analysis of the deposited data

How the results depend on the processing

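All 18 alternatives left 0 of the tested members called in either direction, with a lowest adjusted p of 0.0749 (DESeq2). The threshold of 0.01 is the main fit read more strictly, so it could only return 0 members. The labels do not state whether the replicate numbers pair the libraries. Deviations of same-numbered libraries from their group means had a correlation of 0.0486, which cannot settle it. With the replicate block 0 members and 0 genes over all tested were called. Over all genes the calls ran from 0 (block; FPKM without a filter) over 3 and 4 (FPKM with 1 or 0.1 added) and 7 (robust option off; threshold 0.01) to 680 with DESeq2, 297 with no filter, 65 with limma-voom, 112 and 42 without SIX2 knockdown replicates 1 and 2, and 62 and 41 without control replicates 1 and 2, against 150. Where 1 library was left out, the lone one was assumed to vary like the other group.

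Medians moved beyond the replicate spread as follows. Complex II ran from -0.021 to 0.064 with 1 library left out. Complex III was -0.033 with library totals alone and -0.035 in the 3 FPKM fits, and ran from -0.031 to 0.050 with 1 library left out. Complex IV was -0.062 with library totals and in the FPKM fits and -0.045 with a stricter filter, and ran from -0.061 to 0.019. By CPM per kilobase of a coding transcript, the shares of the summed level were 25.1%, 3.39%, 12.1%, 22.7% and 36.1% for complexes I to V, against 27.9%, 5.19%, 13.6%, 27.0% and 24.9% by FPKM.

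Of the mitochondrially encoded genes DESeq2 called 5 higher and the fit with no filter 3. Over all genes these settings called 4.19% and 1.3% in either direction. With SIX2 knockdown replicate 2 left out, the median log2 fold change of the mitochondrially encoded genes was 0.08. Of the assembly factors DESeq2 called 1 higher and 2 lower, and the fit with no filter 2 lower. None was lower with the robust option off, in the FPKM fits, at a threshold of 0.01 and with the block. Those settings called 0% to 0.0445% of all genes. DESeq2 called 1 citric acid cycle gene higher.

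Of 50 named genes tested, 21 changed sign somewhere, none with a fitted log2 change over 0.29. With library totals these were Sdhb (-0.0032), Ndufa2 (-0.027), Atp5g3 (-0.030), Atp5b (-0.019) and Atp5l (-0.029). In the FPKM fits they were Sdhd (-0.00052, and -0.00053 with 0.1 added), Sdhb (-0.0038), Ndufa2 (-0.020), Atp5g3 (-0.030), Atp5b (-0.020) and Atp5l (-0.029 and -0.030). With DESeq2 and RLE factors they were Ndufa2 (-0.00098 and -0.0025), Atp5g3 (-0.0054 and -0.0065) and Atp5l (-0.0039 and -0.0053). With a stricter filter and counts divided by 4 they were Ndufa2 (-0.0093 and -0.0079), Atp5g3 (-0.013 and -0.011), Atp5b (-0.0017 and -0.00019) and Atp5l (-0.012 and -0.011). With no filter Cyc1 was 0.0034, and with copies added Atp5l was -0.017. With 1 library left out, the ranges that crossed 0 were Sdhd (-0.049 to 0.116), Atp5g1 (-0.039 to 0.140), Sdhb (-0.018 to 0.082), Ndufa2 (-0.137 to 0.168), Atp5g3 (-0.052 to 0.062), Cyc1 (-0.051 to 0.050), Cox7a2l (-0.180 to 0.385), Atp5b (-0.022 to 0.054), Atp5a1 (-0.189 to 0.024), Uqcrc1 (-0.109 to 0.060), Ndufa4 (-0.072 to 0.404), Cox4i1 (-0.311 to 0.407), Cox8a (-0.141 to 0.016), Cox6b1 (-0.106 to 0.056), Atp5l (-0.049 to 0.061), Cox7a1 (-0.441 to 0.019), Ndufa3 (-0.410 to 0.071), Ndufa5 (-0.101 to 0.333), Uqcrh (-0.146 to 0.00034), Ndufa7 (-0.060 to 0.176) and Atp5k (-0.586 to 0.090). The cause was not tested.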

Other observations

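Among the genes left out by name, Ndufb1-ps is annotated as protein coding and had 76.3 and 91.8 FPKM in SIX2 knockdown against 83.4 and 98.8 FPKM in control, within the range of the complex I subunits. Cox5b-ps, also annotated as protein coding, had 92.4 and 106 FPKM in SIX2 knockdown against 98.9 and 99.3 FPKM in control. Ndufab1, the acyl carrier protein that sits in complex I and that the symbol rule did not take, had 105 and 116 CPM in SIX2 knockdown against 119 and 106 CPM in control. Mrpl36, a mitochondrial ribosomal protein gene next to Ndufs6 on the opposite strand, had 76.5 and 76.5 CPM in SIX2 knockdown against 110 and 96.7 CPM in control, a log2 fold change of -0.44 with an adjusted p of 0.102 by edgeR, while Ndufs6 had a log2 fold change of -0.07.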
